A study of Homo sapiens with 6 samples.

Results

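The integrated stress response genes described here are 37 genes of the ATF4 pathway: regulators, amino acid transporters and stress effectors, chosen by gene symbol. All 37 were on the array, represented by 47 of its 58201 gene probes. Probes were tested when 3 or more of the 6 arrays showed them well above background in Cy3 or Cy5, which kept 27497 probes in all and 45 probes of 36 of these genes. FGF21, a secreted stress hormone, was not tested, since its probe was well above background on 1 array in Cy5 and on 0 arrays in Cy3. Gene names are those printed in the array files.

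Messenger RNA was measured on 6 Agilent arrays with 2 dyes in 22RV1, an established human prostate cancer cell line that the labels call SPINK1 positive. Stable lines carried a lentiviral pLemiR-338-5p vector (overexpressing miR-338-5p), a pLemiR-421 vector (overexpressing miR-421) or the pLemiR-RFP control vector, which encodes a red fluorescent protein, and all were kept in RPMI medium with serum and puromycin. On every array Cy3 held RNA of the control and Cy5 held RNA of a miRNA line. The miR-338-5p group has replicates 1, 2 and 3, and the miR-421 group has replicates 1 and 2 and a further sample labelled as a pool. The labels do not say what was pooled, whether the samples are separate cultures, or whether 1 control culture served every array, so the p-values measure the spread between these samples, which may be technical. The dyes were never swapped, so in a comparison with control the dye and the line cannot be told apart. Both comparisons with control may share the control RNA, so their values are set side by side without counting agreement as evidence.

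The integrated stress response slows general translation when kinases such as PERK (EIF2AK3) or GCN2 (EIF2AK4) phosphorylate the initiation factor eIF2. Under that brake the messenger RNA of the transcription factor ATF4 is translated more, and ATF4, together with C/EBP partners, turns on genes that import and make amino acids, charge tRNA, handle glutathione, and feed back on the response. In prostate cancer cells, as in other fast-growing cells, the pathway is known for keeping amino acid supply matched to protein synthesis. MicroRNAs (miRNAs) repress messenger RNAs by base pairing, chiefly through their seed, bases 2 to 8.

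The mature sequences of both overexpressed miRNAs (RefSeq, GRCh38.p14) are shown because they define the groups. The seed is in capitals, and the seeds are not shared. The first is encoded at chr17:81125923-81125944 and the other at chrX:74218392-74218414, both on the minus strand. Pairing sites for them in the members were not searched here.
hsa-miR-338-5p: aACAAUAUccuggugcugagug
hsa-miR-421: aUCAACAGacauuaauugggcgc

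ATF4 binds with C/EBP partners at a composite element, the amino acid response element, whose short form is TGATGNAA (N is any base) and whose common form is TTGCATCA, a subset of the short form on the other strand. RefSeq promoter windows (GRCh38.p14, 250 bases before to 50 bases after a start site) matched 31 of the 37 members by symbol, with 50 windows. SLC7A11, GPT2, NUPR1, EIF4EBP1, PYCR1 and INHBE had none. The short form was found on either strand in 9 of the 31 genes (29%), and in 4.46% of the 27305 genes of the promoter table. By window these shares were 18% of 50 and 3.62% of 35116. The common form was found in 6 of the 31 (19.4%) and in 1.08% of all genes. TGACGTCA, the cyclic AMP response element, was found in 1 of the 31 (PPP1R15A) and in 2.25% of all genes, and the ER stress element in 0 of the 31 and in 0.0916% of all genes. These matches are a description of letters in a window, and a window without a match says nothing of the factor.

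The windows below are of members chosen from the 9 that hold the short form, with the element in capitals. ATF4, DDIT3 and TRIB3 had windows too, and none of these held it. ATF3, ASNS, CHAC1 and JDP2 were higher in both lines, SLC1A5 was higher in the miR-421 line, and CEBPG holds the element but passed the test in neither. Each is written 5′ to 3′ on the strand of its gene.
ATF3 (chr1:212565157-212565456, plus strand): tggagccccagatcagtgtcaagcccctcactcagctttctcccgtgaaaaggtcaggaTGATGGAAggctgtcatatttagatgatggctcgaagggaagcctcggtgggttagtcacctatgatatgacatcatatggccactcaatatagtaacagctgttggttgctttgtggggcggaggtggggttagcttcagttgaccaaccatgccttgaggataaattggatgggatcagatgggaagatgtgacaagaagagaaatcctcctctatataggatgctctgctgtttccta
ASNS (chr7:97872359-97872658, minus strand): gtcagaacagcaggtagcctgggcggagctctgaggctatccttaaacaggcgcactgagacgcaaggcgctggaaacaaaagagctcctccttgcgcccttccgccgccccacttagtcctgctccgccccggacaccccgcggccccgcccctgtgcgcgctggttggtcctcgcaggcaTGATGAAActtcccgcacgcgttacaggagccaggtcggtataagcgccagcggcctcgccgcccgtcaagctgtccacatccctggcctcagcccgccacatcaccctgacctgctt
CHAC1 (chr15:40953221-40953520, plus strand): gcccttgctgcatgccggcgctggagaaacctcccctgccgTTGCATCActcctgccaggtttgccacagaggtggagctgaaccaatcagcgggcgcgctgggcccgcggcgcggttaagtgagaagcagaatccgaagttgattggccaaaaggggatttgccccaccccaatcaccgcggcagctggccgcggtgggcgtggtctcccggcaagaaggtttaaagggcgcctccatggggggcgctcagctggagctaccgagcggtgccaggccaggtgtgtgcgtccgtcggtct
JDP2 (chr14:75427772-75428071, plus strand): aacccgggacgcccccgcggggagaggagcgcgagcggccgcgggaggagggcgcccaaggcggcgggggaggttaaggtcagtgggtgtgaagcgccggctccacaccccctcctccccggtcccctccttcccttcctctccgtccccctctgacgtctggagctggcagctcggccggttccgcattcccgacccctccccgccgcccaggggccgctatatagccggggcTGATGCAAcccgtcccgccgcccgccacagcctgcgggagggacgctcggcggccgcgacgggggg
SLC1A5 (chr19:46784765-46785064, minus strand): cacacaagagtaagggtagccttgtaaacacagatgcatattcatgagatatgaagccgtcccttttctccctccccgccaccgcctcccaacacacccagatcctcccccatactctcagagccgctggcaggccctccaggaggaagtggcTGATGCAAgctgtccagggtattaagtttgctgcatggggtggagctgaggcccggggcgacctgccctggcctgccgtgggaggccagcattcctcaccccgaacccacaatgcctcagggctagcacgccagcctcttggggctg
CEBPG (chr19:33373863-33374162, plus strand): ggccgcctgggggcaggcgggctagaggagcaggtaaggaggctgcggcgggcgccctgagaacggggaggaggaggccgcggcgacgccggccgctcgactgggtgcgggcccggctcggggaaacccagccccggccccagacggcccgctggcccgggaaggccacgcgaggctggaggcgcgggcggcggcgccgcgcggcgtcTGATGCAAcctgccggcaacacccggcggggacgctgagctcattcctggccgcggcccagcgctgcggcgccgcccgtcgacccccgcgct

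The element lay between base -209 (CHAC1) and base 38 (SLC3A2), counted from the start site. It began at -191 in ATF3, -97 in SLC1A5, -68 in ASNS, -54 in FGF21, -42 in CEBPG, -16 in JDP2 and -7 in SLC1A4. In CHAC1 and SLC1A4 it was read as TTGCATCA on the strand of the gene, and in JDP2, SLC1A5 and CEBPG the same common form was read as TGATGCAA. Of the 22 members higher in at least 1 line, 20 had a window and 7 of these (35%) held the short form. Of the 11 other members with a window 2 held it (18.2%). The common form was in 4 of the 20 (20%) and in 2 of the 11 (18.2%). Whether the element goes with the rise was not tested.

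**Figure D1:**
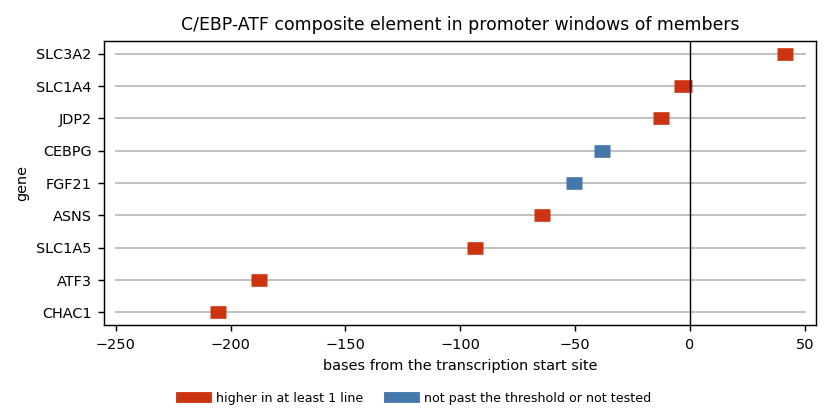
Position of the composite element TGATGNAA in the promoter windows of the 9 members that hold it. The horizontal axis is bases from the annotated start site (vertical line), grey lines are the windows of 250 bases before to 50 after it, and red blocks mark the 7 members higher in at least 1 line. CHAC1 (-209) and SLC3A2 (38) lie at either end.

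Values below are log2 ratios of the miRNA line over control (Cy5 over Cy3), so 1 is a doubling of the signal and values below 0 mean less signal than in control. A trio of values lists miR-338-5p replicates 1, 2 and 3, or the miR-421 pool and replicates 1 and 2, in that order. The adjusted p comes from 1 limma fit of all 6 arrays with Benjamini-Hochberg adjustment over all probes tested, two-sided, and passing means under 0.05. Each gene is given by its probe with the highest mean intensity, and probe positions are on hg19.

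More ATF4 pathway genes were higher than lower in both lines. Against control, 17 of the 36 tested were higher in the miR-338-5p line and 1 was lower, while 22 were higher in the miR-421 line and 2 were lower. Over all genes tested with 1 probe a gene, 3.98% were higher and 5.25% lower in the miR-338-5p line, and 10% were higher and 12.6% lower in the miR-421 line. The median log2 ratio of the members was 0.76 in the miR-338-5p line and 0.80 in the miR-421 line, where the medians over all genes tested were -0.00064 and 0.0062. On single arrays the members' median was 0.97, 0.71 and 0.65 for miR-338-5p and 0.65, 0.86 and 1.02 for miR-421, so it was above 0 on each of the 6. Since RNA came from whole cultures, a change in every cell and a larger change in some cells cannot be told apart. The count in the miR-338-5p line was 9 without its replicate 1, 10 without its replicate 3 and 10 when only its own 3 arrays were fitted, and the count in the miR-421 line was 10 without its replicate 2. Over all probes, the calls in these fits fell as well, from 2470 to 568, 401 and 214 for miR-338-5p and from 5946 to 628 for miR-421.

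**Figure D2:**
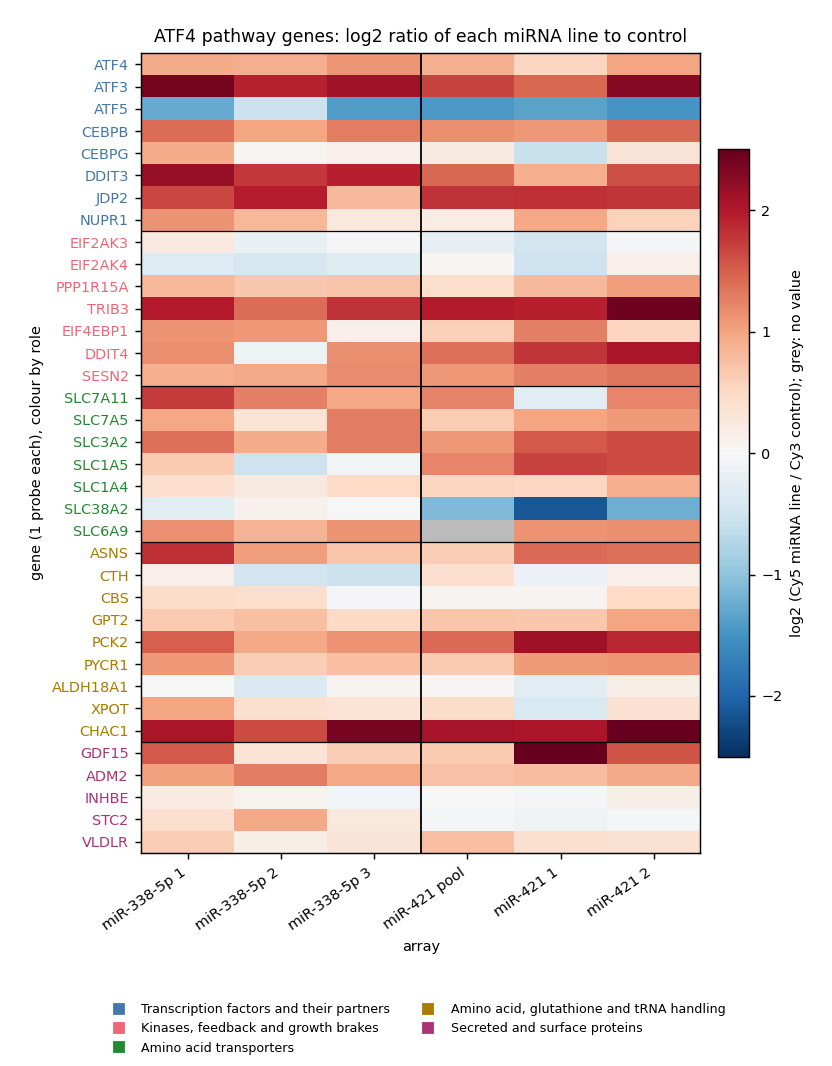
Log2 ratio (miRNA line over control) of the 36 tested members on each of the 6 arrays, as colour from blue (lower) through white to red (higher), with genes ordered and coloured by role; the colour scale ends at 2.5 on either side, and the 1 grey cell is a spot that was left out. CHAC1, TRIB3, ATF3 and JDP2 are red on every array, ATF5 is blue on every array, and SLC38A2 is blue on the 3 miR-421 arrays.

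All 6 arrays shared 1 slide and 1 scan time. Between 44.3% and 47.9% of gene spots were well above background in Cy3, and between 41.9% and 48.3% in Cy5, with 0 saturated. Across probes tested, which are not independent, and with control RNA that arrays may share, log2 ratios correlated between arrays at 0.478 to 0.613 within the miR-338-5p group, 0.637 to 0.823 within the miR-421 group and 0.337 to 0.594 between the groups, so the ranges within miR-338-5p and between the groups overlap. All 11 prostate epithelial marker genes, KLK3 among them, were well above background in control RNA. Of these, KRT8 and SPINK1 were among those lower in the miR-338-5p line. Of the 6 fibroblast markers 3 were well above background in control RNA (COL1A2, COL3A1 and PDGFRB were not), as were 4 of 4 leukocyte and 2 of 4 endothelial markers. LUM of the fibroblast list was higher in the miR-421 line. The part of these markers in the results was not tested.

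Among the 8 transcription factors and partners, ATF4, ATF3, CEBPB, DDIT3 and JDP2 rose in both lines and ATF5 fell in both. Counts by role, here and below, stand beside the shares over all genes tested. These were 3.98% higher and 5.25% lower for miR-338-5p, and 10% higher and 12.6% lower for miR-421. ATF4 (probe on chromosome 22, 39918577 to 39918636, plus strand), the central activator of the pathway, had ratios of 0.92, 0.91 and 1.11 in the miR-338-5p line and 0.88, 0.54 and 0.98 in the miR-421 line. All 6 arrays were above 0, and the groups overlapped. The means were 0.98 ± 0.11 (SD, n = 3, 1.97-fold, adjusted p = 0.00832) and 0.80 ± 0.23 (SD, n = 3, 1.74-fold, adjusted p = 0.00713). With the image software's own ratio ATF4 did not pass in either line, at 0.81 (adjusted p = 0.0691) and 0.56 (adjusted p = 0.0878), nor did it pass with the authors' table (adjusted p = 0.0614 and 0.0812), nor for miR-421 without replicate 2 (0.71, adjusted p = 0.0525).

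ATF3 (chromosome 1, 212793856 to 212793915, plus strand), a stress-induced partner of the same family, had the highest mean of the members in the miR-338-5p line. Its ratios were 2.39, 1.93 and 2.10 for miR-338-5p and 1.68, 1.43 and 2.27 for miR-421. The means were 2.14 ± 0.23 (SD, n = 3, 4.41-fold, adjusted p = 0.00561) and 1.79 ± 0.43 (SD, n = 3, 3.47-fold, adjusted p = 0.00422). Its other 3 probes gave smaller means, 1.00, 1.23 and 0.05 for miR-338-5p and 0.77, 0.92 and 0.16 for miR-421, and the third of these passed in neither line (adjusted p = 0.687 and 0.128). With the 4 probes averaged, ATF3 still passed in both lines (adjusted p = 0.012 and 0.00864).

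DDIT3 (chromosome 12, 57911200 to 57911526, minus strand), also called CHOP, is a stress factor linked to cell death. It stood at 2.17, 1.77 and 1.95 in the miR-338-5p line and at 1.43, 0.90 and 1.62 in the miR-421 line, so its groups did not overlap. The means were 1.96 ± 0.20 (SD, n = 3, 3.90-fold, adjusted p = 0.00505) and 1.32 ± 0.37 (SD, n = 3, 2.49-fold, adjusted p = 0.00611). CEBPB, a C/EBP partner of ATF4, rose in both lines and overlapped between them, with 1.40, 0.98 and 1.28 and then 1.17, 1.09 and 1.44 (means 1.22 ± 0.21 and 1.24 ± 0.18, SD, n = 3, adjusted p = 0.00608 and 0.00326). JDP2, a leucine zipper factor that pairs within this family, spread widely in the miR-338-5p line (1.68, 1.97 and 0.82) and narrowly in the miR-421 line (1.82, 1.84 and 1.78). Its means were 1.49 ± 0.60 (SD, n = 3, adjusted p = 0.0166) and 1.81 ± 0.03 (SD, n = 3, adjusted p = 0.00611).

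ATF5, a factor related to ATF4 whose own message is under translational control, moved opposite to the others. Its ratios were -1.26, -0.54 and -1.40 for miR-338-5p and -1.44, -1.34 and -1.47 for miR-421, below 0 on all 6 arrays. The means of -1.07 ± 0.46 (SD, n = 3, 0.477 of control, adjusted p = 0.0205) and -1.42 ± 0.07 (SD, n = 3, 0.374 of control, adjusted p = 0.00623) both passed. Of the remaining factors, NUPR1, a small chromatin stress protein, was above 0 on all 6 arrays without passing (0.74 ± 0.44 and 0.58 ± 0.40, SD, n = 3, adjusted p = 0.0767 and 0.0898). CEBPG, the usual dimer partner of ATF4, ranged from -0.55 to 0.93 and passed in neither line (adjusted p = 0.375 and 0.995). For miR-338-5p, ATF5 lost its call without replicate 1 (adjusted p = 0.0795), without replicate 3 (0.0769) or without miR-421 replicate 2 (0.0544), and JDP2 lost its call without replicate 1 (0.0681) or 2 (0.0536). Without miR-421 replicate 2, ATF5 and JDP2 narrowly missed the threshold in the miR-421 line (adjusted p = 0.0523 and 0.0503).

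**Figure D3:**
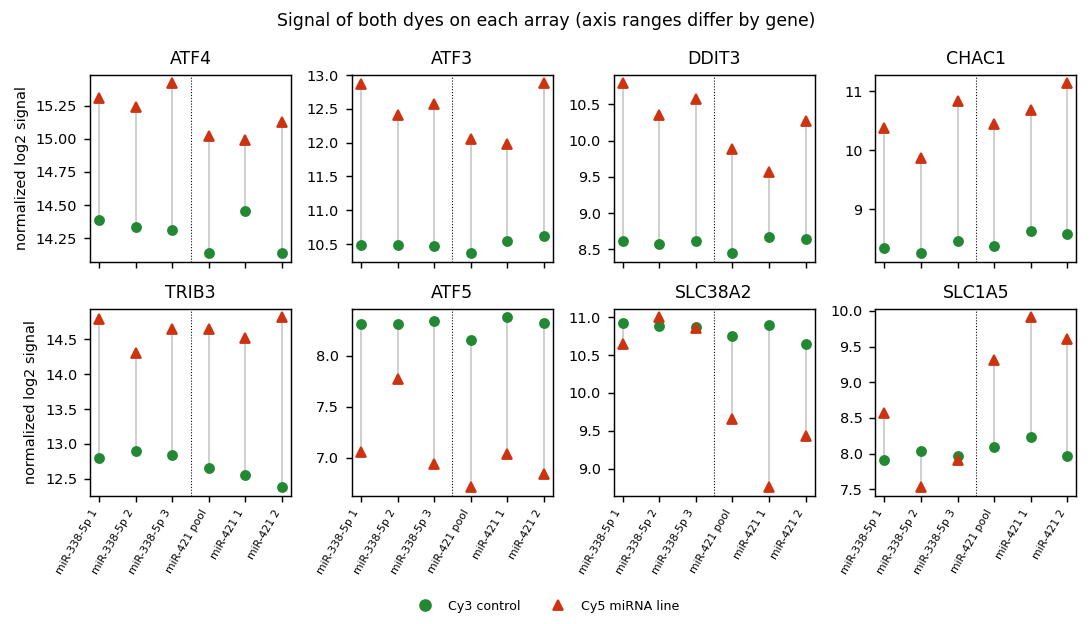
Normalized log2 signal of both dyes on each of the 6 arrays for 8 members, with green circles for control (Cy3) and red triangles for the miRNA line (Cy5), and axis ranges that differ by gene. For ATF4, ATF3, DDIT3, CHAC1 and TRIB3 every triangle lies above its circle, for ATF5 every triangle lies below, and SLC38A2 and SLC1A5 separate in the 3 miR-421 arrays.

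The control signal, after scaling between arrays, moved by different amounts from member to member. For ATF4 the Cy3 log2 signal lay between 14.14 and 14.46 over the 6 arrays, for ATF3 between 10.37 and 10.61, and for DDIT3 between 8.45 and 8.67. The widest Cy3 ranges among the members with 6 values were 0.71 for GDF15, 0.56 for ASNS and 0.52 for TRIB3.

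Of the 7 kinases, feedback genes and growth brakes, 3 rose in the miR-338-5p line (PPP1R15A, TRIB3 and SESN2) and 4 in the miR-421 line (these and DDIT4), and the sensor kinases and EIF4EBP1 passed in neither. PERK (EIF2AK3) had means of 0.00015 ± 0.22 and -0.24 ± 0.21, and GCN2 (EIF2AK4) had -0.35 ± 0.07 and -0.11 ± 0.35 (SD, n = 3). Neither passed in either line (adjusted p between 0.147 and 0.999). These are messenger RNA levels, and kinase activity, phosphate on eIF2 and ATF4 protein were not measured on these arrays. TRIB3 (chromosome 20, 378107 to 378166, plus strand), a pseudokinase that binds ATF4 and dampens it, was among the strongest rises in both lines. It had ratios of 1.98, 1.40 and 1.80 for miR-338-5p and 1.99, 1.95 and 2.43 for miR-421. The means were 1.73 ± 0.30 (SD, n = 3, 3.31-fold, adjusted p = 0.00589) and 2.13 ± 0.27 (SD, n = 3, 4.36-fold, adjusted p = 0.00242).

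PPP1R15A, the phosphatase subunit that takes phosphate off eIF2 again, rose with 0.83, 0.67 and 0.72 and with 0.44, 0.81 and 1.04 (means 0.74 ± 0.09 and 0.76 ± 0.31, SD, n = 3, adjusted p = 0.0216 and 0.011). Its probe is dim, and with local background subtracted in place of normexp its values were 1.16 and 1.25. SESN2, a leucine sensor that restrains the growth kinase mTOR, varied little between arrays, at 0.91, 0.94 and 1.17 and at 1.09, 1.27 and 1.33. Its means were 1.01 ± 0.14 (SD, n = 3, adjusted p = 0.00558) and 1.23 ± 0.13 (SD, n = 3, adjusted p = 0.00228). DDIT4, another mTOR inhibitor, passed only for miR-421, with 1.38, 1.78 and 2.03 there against 1.16, -0.13 and 1.17 for miR-338-5p (means 1.73 ± 0.33 and 0.73 ± 0.74, SD, n = 3, adjusted p = 0.0127 and 0.153). EIF4EBP1, a brake on cap-dependent translation, was above 0 on all 6 arrays and passed in neither line (0.78 ± 0.57 and 0.80 ± 0.40, SD, n = 3, adjusted p = 0.0964 and 0.0594). PPP1R15A missed the threshold for miR-338-5p without replicate 1, 2 or 3 of that line (adjusted p = 0.0834, 0.073 and 0.0853) and by median centring of each array (0.0776). Without miR-421 replicate 2, PPP1R15A and DDIT4 missed it for miR-421 (adjusted p = 0.0601 and 0.0781).

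Of the 7 amino acid transporters, 3 rose in the miR-338-5p line, and 5 rose and 1 fell in the miR-421 line. Over all genes, 12.6% were lower in the miR-421 line, so 1 of 7 falling is near that share. SLC7A5 is the large neutral amino acid transporter and SLC3A2 the heavy chain it needs at the membrane. SLC3A2 had ratios of 1.38, 0.92 and 1.28 for miR-338-5p and 1.07, 1.53 and 1.64 for miR-421, with means of 1.19 ± 0.24 (SD, n = 3, adjusted p = 0.0119) and 1.41 ± 0.30 (SD, n = 3, adjusted p = 0.00445). SLC7A5 followed at 0.96, 0.34 and 1.28 and at 0.64, 0.99 and 1.07 (means 0.86 ± 0.48 and 0.90 ± 0.23, SD, n = 3, adjusted p = 0.0427 and 0.0234). The groups of both genes overlapped. SLC7A11, the cystine importer that shares the same heavy chain, did not pass. It read 1.75, 1.25 and 0.97 for miR-338-5p and 1.25, -0.29 and 1.22 for miR-421, where replicate 1 alone was below 0 (adjusted p = 0.0588 and 0.161).

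SLC1A5 (chromosome 19, 47278899 to 47278958, minus strand) carries glutamine and other neutral amino acids into the cell. In the miR-338-5p line it scattered about 0 (0.66, -0.51 and -0.06), and in the miR-421 line it was higher on each array (1.22, 1.68 and 1.64). The means were 0.03 ± 0.59 (SD, n = 3, adjusted p = 0.953) and 1.52 ± 0.25 (SD, n = 3, 2.86-fold, adjusted p = 0.0100). SLC1A4, a related carrier of small neutral amino acids, rose for miR-421 (0.53, 0.51 and 0.90, mean 0.65 ± 0.22, SD, n = 3, adjusted p = 0.0109) and did not pass for miR-338-5p (0.41, 0.23 and 0.49, adjusted p = 0.0653). Its probe is dim, and its miR-421 value was 1.87 by subtraction of the local background and 1.95 by the image software's ratio.

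SLC38A2 (chromosome 12, 46752710 to 46752769, minus strand), a sodium-coupled importer of small neutral amino acids, fell in the miR-421 line. Its ratios there were -1.10, -2.14 and -1.21, while those of the miR-338-5p line were -0.27, 0.11 and -0.0027. The means were -1.49 ± 0.57 (SD, n = 3, 0.357 of control, adjusted p = 0.00918) and -0.05 ± 0.20 (SD, n = 3, adjusted p = 0.900). A second SLC38A2 probe gave -0.60, -1.01 and -0.84 for miR-421 (adjusted p = 0.00844) and 0.02, 0.40 and 0.37 for miR-338-5p (adjusted p = 0.187). Both probes thus had all 3 miR-421 arrays below every miR-338-5p array.

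SLC6A9, the glycine carrier, had ratios of 1.14, 0.86 and 1.13 for miR-338-5p (mean 1.04 ± 0.16, SD, n = 3, adjusted p = 0.0073) and of 1.12 and 1.17 on miR-421 replicates 1 and 2 (mean 1.14 over n = 2, adjusted p = 0.00517). Its spot on the pool array was marked as an outlier by the image software and left out of the fit. That spot read -2.81, and with it kept the miR-421 value was -0.17 (adjusted p = 0.895) and SLC6A9 no longer passed for miR-338-5p either (adjusted p = 0.447). Its second, dimmer probe had means of 0.10 and 0.08 and passed in neither line. Without miR-421 replicate 2 the calls of SLC1A5, SLC1A4, SLC38A2, SLC6A9 and SLC7A5 in the miR-421 line were lost (adjusted p = 0.0681, 0.0572, 0.0527, 0.0559 and 0.116), and that of SLC7A5 also without replicate 1 (0.0823). For miR-338-5p, SLC7A5 did not pass without replicate 1 (adjusted p = 0.144), replicate 3 (0.143), miR-421 replicate 2 (0.0826) or the pool of that line (0.0698), and SLC3A2 did not pass without replicate 1 (0.0517) or 3 (0.0588).

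**Figure D4:**
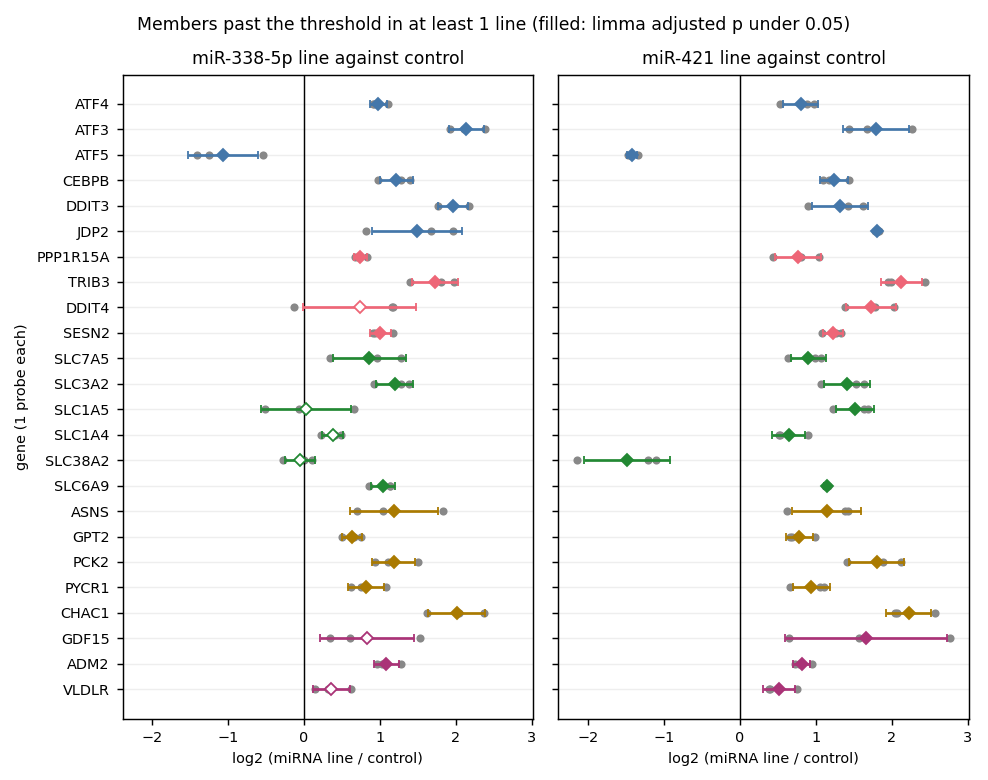
Log2 ratios of the 24 members past the threshold in at least 1 line, with the miR-338-5p line against control on the left and the miR-421 line on the right, on 1 shared scale. Grey points are arrays, diamonds are means and bars are 1 SD; filled diamonds passed (limma adjusted p under 0.05). ATF5 lies below 0 and passed in both panels, SLC38A2 is at -0.05 on the left and -1.49 on the right, and SLC1A5 is at 0.03 on the left and 1.52 on the right.

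Of the 9 genes of amino acid, glutathione and tRNA handling, ASNS, GPT2, PCK2, PYCR1 and CHAC1 rose in both lines. CHAC1 (chromosome 15, 41248631 to 41248690, plus strand), which degrades glutathione, had the highest mean of the members in the miR-421 line. Its ratios were 2.04, 1.62 and 2.38 for miR-338-5p and 2.07, 2.05 and 2.57 for miR-421, with overlapping groups. The means were 2.01 ± 0.38 (SD, n = 3, 4.04-fold, adjusted p = 0.00589) and 2.23 ± 0.29 (SD, n = 3, 4.68-fold, adjusted p = 0.00285). A second, dimmer CHAC1 probe gave 0.48 (adjusted p = 0.0932) and 0.72 (adjusted p = 0.0225). With both probes averaged CHAC1 was at 1.25 and 1.47, and its miR-421 value was then below that of TRIB3 (2.13).

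ASNS (chromosome 7, 97481461 to 97481520, minus strand), which makes asparagine and is a standard readout of ATF4, varied more between arrays. It had 1.83, 1.04 and 0.69 for miR-338-5p and 0.62, 1.42 and 1.39 for miR-421. The means were 1.19 ± 0.58 (SD, n = 3, 2.28-fold, adjusted p = 0.0415) and 1.14 ± 0.45 (SD, n = 3, 2.21-fold, adjusted p = 0.0277). The miR-338-5p call passed in 9 of 18 alternative settings. It was lost without any 1 of replicates 1, 2 and 3 (adjusted p = 0.112, 0.118 and 0.076), without the miR-421 pool (0.055) and without miR-421 replicate 2 (0.0807), and the miR-421 call was lost without replicate 1 (0.104) or 2 (0.131).

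PCK2, a mitochondrial enzyme that makes phosphoenolpyruvate, had 1.50, 0.94 and 1.11 for miR-338-5p and 1.41, 2.12 and 1.88 for miR-421 (means 1.18 ± 0.29 and 1.81 ± 0.36, SD, n = 3, adjusted p = 0.0161 and 0.00365). PYCR1, the last step of proline synthesis, had 1.08, 0.62 and 0.75 and then 0.66, 1.06 and 1.11 (means 0.82 ± 0.24 and 0.94 ± 0.24, SD, n = 3, adjusted p = 0.0202 and 0.00813). GPT2, the mitochondrial alanine aminotransferase, was the smallest of these rises, at 0.66, 0.75 and 0.50 and at 0.69, 0.67 and 0.99 (means 0.64 ± 0.13 and 0.78 ± 0.18, SD, n = 3, adjusted p = 0.0163 and 0.00594). Second probes of PCK2 (0.70 and 0.82) and PYCR1 (0.40 and 0.52) lay above 0 in both lines and passed for miR-421 alone. For miR-338-5p, GPT2 and PYCR1 did not pass without any 1 of the 3 replicates (adjusted p between 0.0518 and 0.0757), and PCK2 did not pass without replicate 1 (0.06) or 3 (0.068). For miR-421, PYCR1 did not pass without replicate 2 (adjusted p = 0.0596).

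The remaining 4 genes of this role passed in neither line. CTH and CBS, which turn homocysteine into cysteine, had means of -0.30 and 0.28 for miR-338-5p and of 0.13 and 0.21 for miR-421. ALDH18A1, the first step of proline synthesis, was at -0.11 and -0.03. XPOT, which exports tRNA from the nucleus, was above 0 on the 3 miR-338-5p arrays (0.98, 0.40 and 0.34) and mixed on those of miR-421 (0.45, -0.38 and 0.38).

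Among the 5 secreted and surface proteins tested, ADM2 rose in both lines, and GDF15 and VLDLR in the miR-421 line. ADM2, a peptide hormone of the adrenomedullin family, had 1.03, 1.27 and 0.96 and then 0.73, 0.78 and 0.94 (means 1.09 ± 0.16 and 0.82 ± 0.11, SD, n = 3, adjusted p = 0.00505 and 0.00461). Its second, dimmer probe gave 0.14 and 0.22 and passed in neither line. GDF15, a secreted stress cytokine, had the widest spread of the members in the miR-421 line. It read 1.53, 0.35 and 0.61 for miR-338-5p (mean 0.83 ± 0.62, SD, n = 3, adjusted p = 0.263) and 0.65, 2.77 and 1.57 for miR-421 (mean 1.67 ± 1.06, SD, n = 3, adjusted p = 0.0380). The highest of these, 2.77, was miR-421 replicate 1, and without it the mean was 1.11 (adjusted p = 0.103). The GDF15 control signal was also lowest on that array (Cy3 log2 12.74, against 13.18 to 13.45 on the others). GDF15 also missed the threshold for miR-421 without replicate 2 (0.138) and without miR-338-5p replicate 1, 2 or 3 (0.0512, 0.0507 and 0.0616).

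VLDLR, a lipoprotein receptor, had 0.76, 0.39 and 0.39 for miR-421 (mean 0.51 ± 0.21, SD, n = 3, adjusted p = 0.0309) and 0.62, 0.14 and 0.32 for miR-338-5p (adjusted p = 0.112). Its probe is dim, and the miR-421 call was lost without the pool (0.39, adjusted p = 0.107), without replicate 1 (0.0683) or 2 (0.0971) and without miR-338-5p replicate 3 (0.0525), while the value was 1.20 with local background subtracted. STC2, a secreted glycoprotein, had 0.43, 0.95 and 0.27 for miR-338-5p (adjusted p = 0.0527) and -0.02, -0.13 and -0.04 for miR-421 (adjusted p = 0.768). INHBE, an activin subunit, was well above background on 1 array in Cy3 and 2 arrays in Cy5, so its mean ratios of 0.08 and 0.03 describe a signal near background.

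The miR-338-5p and miR-421 lines were then compared directly. Here the control and a dye effect cancel only as far as they are the same on all arrays, which the labels do not settle for the control. The largest gap in mean Cy3 log2 signal between the groups, among members with 6 values, was in TRIB3. Its control signal was higher by 0.31 on the miR-338-5p arrays. None of the 36 members passed (0 higher and 0 lower by limma, 6 at an unadjusted p under 0.05, where 3753 of all 27492 probes tested were). In this comparison 0.0138% of all genes tested were higher and 0.0323% were lower in the miR-338-5p line. The largest differences were in transporters: SLC1A5 was lower in the miR-338-5p line by -1.49 (95% interval -2.24 to -0.73, adjusted p = 0.152), and SLC38A2 was higher by 1.43 (0.72 to 2.14, adjusted p = 0.149). The second SLC38A2 probe differed by 1.08 (adjusted p = 0.0839).

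The other members at an unadjusted p under 0.05 were DDIT3 (difference 0.65, interval 0.14 to 1.16), STC2 (0.61, 0.17 to 1.06), PCK2 (-0.62, -1.17 to -0.07) and DDIT4 (-0.999, -1.95 to -0.05), with adjusted p between 0.246 and 0.346. For ATF4, ATF3, CHAC1, TRIB3 and ASNS, which also rose in both lines, the intervals included 0 and were wide enough to leave room for a difference. ATF4 differed by 0.18 (-0.16 to 0.51), ATF3 by 0.35 (-0.23 to 0.93), CHAC1 by -0.21 (-0.78 to 0.36), TRIB3 by -0.40 (-0.88 to 0.09) and ASNS by 0.04 (-0.82 to 0.90). Of the 35 members with a value on every array, 7 had groups that did not overlap. The same held for 20% of all genes tested with 6 values, so this count is at the background. These were DDIT3, SLC38A2, ADM2 and STC2, higher in the miR-338-5p line, and DDIT4, SLC1A5 and SLC1A4, lower in it. For ADM2 this holds for its brighter probe only. The dimmer ADM2 probe differed by -0.08 with overlapping groups, and the difference of its averaged probes was 0.09 (limma adjusted p = 0.682).

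**Figure D5:**
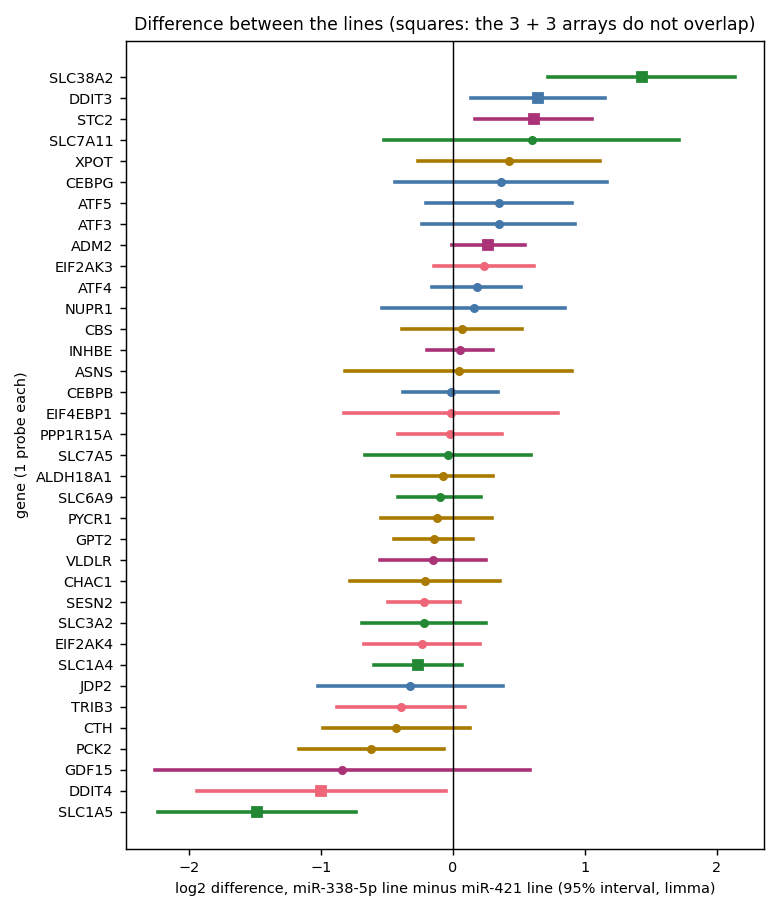
Difference of the mean log2 ratios, miR-338-5p line minus miR-421 line, for the 36 tested members, ordered by size and coloured by role, with 95% intervals from limma. Squares mark the 7 members whose 3 and 3 arrays do not overlap. SLC38A2 (1.43) and SLC1A5 (-1.49) lie at either end, and no member passed after adjustment over all probes.

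Genes that lie upstream of ATF4 were read against the shares over all genes given above (3.98% higher and 5.25% lower for miR-338-5p, 10% higher and 12.6% lower for miR-421). Of 15 tested genes of the eIF2 machinery, 0 were higher and 2 were lower in the miR-338-5p line (EIF2AK2 and QRICH1), and 1 was higher (EIF2B4) and 4 were lower in the miR-421 line (EIF2AK2, EIF2S1, DNAJC3 and QRICH1). EIF2AK2, the kinase that senses double-stranded RNA, had -0.72, -0.83 and -0.93 for miR-338-5p (mean -0.82 ± 0.11, SD, n = 3, adjusted p = 0.0206) and -0.59, -1.25 and -0.84 for miR-421 (mean -0.89 ± 0.33, SD, n = 3, adjusted p = 0.00941). The median of this list was -0.06 and -0.15. On miR-421 replicate 1 it was -0.43, against -0.02 and -0.08 on the other 2 arrays of that line.

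Further ATF4 targets of amino acid supply, serine and one-carbon enzymes and tRNA synthetases, included 5 of 18 that rose in the miR-338-5p line (PSPH, SHMT2, MTHFD2, MARS and SARS) and 11 that rose in the miR-421 line, with 1 that fell there (LARS), against the same shares over all genes. The list medians were 0.46 and 0.59. MTHFD2, a mitochondrial folate enzyme, had 1.30, 0.61 and 0.87 and then 1.09, 0.34 and 1.06. MARS, the methionyl-tRNA synthetase, had 1.32, 1.05 and 0.90 and then 0.75, 1.26 and 0.91. PHGDH, the first step of serine synthesis, scattered about 0 for miR-338-5p (0.51, 0.08 and -0.49) and rose for miR-421 (0.80, 1.51 and 1.03, adjusted p = 0.0198), and its difference between the lines did not pass (-1.08, adjusted p = 0.225). The synthetase genes did not move as 1 block: NARS, for asparagine, was at -0.44 and -0.56 and passed in neither line.

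The ER branch of the unfolded protein response, led by ATF6 and XBP1, restores folding capacity in the endoplasmic reticulum. Of its 16 genes, XBP1, ATF6 and HERPUD1 rose in both lines and 13 passed in neither, with medians of 0.05 and -0.08, where 3.98% and 10% of all genes were higher. HERPUD1, which helps to clear misfolded proteins, is also described as a target of ATF4, and rose by 0.56 ± 0.14 and 0.81 ± 0.10 (SD, n = 3, adjusted p = 0.0145 and 0.00379). HSPA5, the main ER chaperone and the usual marker of this branch, was below 0 on all 6 arrays without passing (-0.95, -1.33 and -0.06, then -0.47, -1.14 and -0.38, adjusted p = 0.121 in both lines). The miR-338-5p arrays disagreed on this branch, since the list median was -0.24 and -0.11 on replicates 1 and 2 and 0.35 on replicate 3. SDF2L1, an ER chaperone partner, read -1.37, -1.15 and 0.93 on these arrays. The members' own medians on the same arrays were 0.97, 0.71 and 0.65.

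Of 16 autophagy and death genes linked to ATF4 and DDIT3, ATG7, ATG10 and PMAIP1 rose in the miR-338-5p line, and ATG7, ATG10, BBC3, BCL2L11 and TNFRSF10B rose in the miR-421 line while ATG3 and ATG5 fell. Over all genes, 3.98% were higher in the miR-338-5p line, and 10% were higher and 12.6% lower in the miR-421 line, so the 2 of 16 that fell are at the share of all genes. The medians were 0.28 and 0.16. TNFRSF10B, a death receptor induced by DDIT3, had 0.93, 1.00 and 0.91 for miR-421 (mean 0.95 ± 0.05, SD, n = 3, adjusted p = 0.0143) and 0.88, 0.16 and 0.05 for miR-338-5p (adjusted p = 0.206). BBC3, an activator of cell death, had 0.59, 1.11 and 1.01 for miR-421 (adjusted p = 0.00673) and 0.51, 0.48 and 0.36 for miR-338-5p (adjusted p = 0.0548). None of the genes in these 4 further lists passed in the direct comparison of the lines.

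Single arrays did not carry the members equally. Of the members with a value, 32, 29 and 28 of 36 were above 0 on the miR-338-5p arrays, and 30 of 35, 25 of 36 and 32 of 36 on the miR-421 arrays. The lowest of these counts, 25, was on miR-421 replicate 1. On that array SLC7A11, CEBPG, XPOT and SLC38A2, among others, were lower than on both other arrays of the line. GDF15, among others, was higher. Over all genes tested the lower quartile was also lowest on that array, at -0.31, against -0.17 on the pool and -0.18 on replicate 2.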

How the data were processed

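Scans had been read by the authors with Feature Extraction 11.5.1.1, per the file headers. Deposited intensity columns used here were the mean spot signal and median local background of either dye, without normalization. That software's log10 ratio (Cy5 over Cy3), also deposited, followed its own background and dye correction, per the file headers. The deposited series table held values per gene name that followed the image software's log2 ratio (correlation 0.965 to 0.971 per array, column medians -0.016 to 0.102). They were read as log2 of Cy5 over Cy3, with the centring unknown. Both were used as alternatives only. Per the labels' protocols, a poly(A) tail was added to total RNA before oligo-dT labelling, so RNA without a natural tail could also be labelled.

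Signals were corrected by normexp (offset 50) and normalized by loess within each array, with control spots given no weight. Outlier spots were left out and spots of 1 probe averaged. Probes that 3 or more of 6 arrays showed well above background in Cy3 or Cy5 were tested with limma 3.58.1 in R 4.3.3 (1 fit, a mean per group, eBayes, prior degrees of freedom 2.05, Benjamini-Hochberg, 0.05). Channel levels were taken after loess and Aquantile scaling. The code was tested on simulated data.

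The members and all lists were chosen with earlier results of these data known, so no count here is independent support. The members given in full were ATF4, DDIT3, ATF3, CHAC1, TRIB3 and ASNS, and every member past the threshold. Further genes were named from the lists after their values were seen. Replicates 1 and 2 occur in both groups, but deviations of same-numbered arrays did not go together (correlations -0.14 and -0.21 across probes), so the numbers were not used as pairs. The number of arrays limits the precision. Exon and UTR annotation was not used here. Calls of some marker genes are not reported here.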

Additional observations from a re-analysis of the deposited data

Results flagged for a closer look

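The control channel of 3 of the 36 members tested had 1 array apart from the others by Dixon's test at its 95% critical value (chance alone marks about 1 in 20 such groups). ATF5 had a Cy3 log2 signal of 8.16 on the miR-421 pool array, against a median of 8.32 on the others. CTH was at 8.25 on the same array, against a median of 8.43. SLC6A9 was at 8.14 on miR-421 replicate 1, against a median of 8.34 over the other arrays with a value. The gaps of ATF5 and SLC6A9 are small beside the ATF5 ratio of -1.44 on the pool array and the SLC6A9 ratio of 1.12 on miR-421 replicate 1. The gap of CTH is larger in proportion to its ratio of 0.41 on the pool array, and CTH passed in neither line.

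SLC38A2 by its second probe and STC2 were marked because every array of 1 line lay above 0 and every array of the other below it. The share of all probes that meet this rule was not counted. The STC2 values for miR-421 lay close to 0 (-0.02, -0.13 and -0.04), and its probe is dim. The brighter SLC38A2 probe did not meet the rule, with -0.27, 0.11 and -0.0027 for miR-338-5p. The second SLC38A2 probe differed between the lines by 1.08 (limma adjusted p = 0.0839), and the difference in STC2 was 0.61 (limma adjusted p = 0.246). Neither passed the test of the difference.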

How the results depend on the processing

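The counts of members past the threshold stayed within 1.5 times of 18 (miR-338-5p), 24 (miR-421) and 0 (difference) under other background corrections, median centring, the authors' table, the ratio of the image software, both other filters, outlier spots kept, another variance model and averaged probes, with 1 exception: fitting the miR-338-5p arrays alone gave 10. With 1 array left out, the counts ran from 9 to 20, from 10 to 23, and stayed at 0 for the difference (9 without miR-338-5p replicate 1, 10 without miR-338-5p replicate 3, and 10 without miR-421 replicate 2), so the number of arrays limits these counts. Over all probes, the calls under these settings ran from 214 to 3648 (miR-338-5p), from 628 to 6956 (miR-421) and from 0 to 89 (difference). The miR-421 median of 0.80 rose to 1.03 with local background subtracted and to 1.02 with the image software's ratio, by more than its SD between arrays (0.18). The cause was not tested. Single-gene values that changed sign were SLC6A9 in the miR-421 line with outlier spots kept (-0.17, the left-out pool spot returning) and the difference of ADM2 with the authors' table (-0.022, the cause was not tested). The members' median difference, -0.03 in the main fit, was above 0 without miR-338-5p replicate 2 (0.0021) and without miR-421 replicate 2 (0.027). With the replicate number as a replicate block the counts were 18, 24 and 0 and the medians 0.79, 0.82 and -0.03, with a consensus correlation of -0.30, and no member's call changed. Dim probes (PPP1R15A, SLC1A4, STC2 and VLDLR) gave values that depend on how the background is handled.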
